A study of Mus musculus with 12 samples.

Results

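The pyruvate dehydrogenase kinases and the pyruvate dehydrogenase complex were described in gastrocnemius muscle of the mouse through 9 genes, chosen by symbol: the kinases Pdk1, Pdk2, Pdk3 and Pdk4, the phosphatase subunit Pdp1, and the complex subunits Pdha1, Pdhb, Dlat and Pdhx. The deposited table of TPM (transcript abundances scaled to transcript length and to the library's total) listed 8 of the 9 among its 10475 genes, and the 8 were among the 10415 genes tested. Pdk3 was not listed there. The table held only genes with at least 1.0 TPM in replicate 1 of wild-type mice at ZT0, so this says nothing of Pdk3 in the other libraries. Mice of the C57BL/6 background, 8 weeks old and on chow, were kept in a cycle of 12 h light and 12 h dark. The wild type (WT) was set against a transgenic strain (TG) whose liver overexpresses E4BP4, a basic leucine zipper repressor tied to the circadian clock. Muscle was taken at Zeitgeber time ZT0, the start of the light phase, and at ZT12, the start of the dark phase, which gave 4 groups of 3 poly(A) RNA libraries: WT at ZT0, TG at ZT0, WT at ZT12 and TG at ZT12. The labels do not name the promoter that drives the transgene, do not give the sex of the mice, and do not say whether a library came from 1 mouse or from several, so the p-values below measure the spread between these libraries.

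The pyruvate dehydrogenase complex sits in the mitochondrial matrix and turns pyruvate into acetyl-CoA, which commits carbohydrate to oxidation. Pdha1 and Pdhb encode the alpha and beta subunits of its first enzyme, Dlat the dihydrolipoamide acetyltransferase that forms its core, and Pdhx a protein that anchors the third enzyme to that core. The 4 kinases phosphorylate the alpha subunit and switch the complex off, and phosphatases, of which Pdp1 is a catalytic subunit, switch it on again. In skeletal muscle Pdk4 is known for its rise in fasting and in other states in which fat is burned in place of glucose, and Pdk2 for its presence in most tissues.

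The genes lie apart in the genome (mm10). Pdk4 lies on the minus strand of chromosome 6 from 5483351 to 5496278, Pdk2 on the minus strand of chromosome 11 from 95026258 to 95041371, Pdk1 on the plus strand of chromosome 2 from 71873224 to 71903858, and Pdk3 on the minus strand of chromosome X from 93764616 to 93832095. Pdp1 is found on chromosome 4 from 11958185 to 11966450, Pdha1 on chromosome X from 160122219 to 160138430, Pdhb on chromosome 14 from 8165991 to 8172992, Dlat on chromosome 9 from 50634633 to 50659780, and Pdhx on chromosome 2 from 103021057 to 103073513, with Pdk1. In the GENCODE M21 annotation the 4 kinase genes share a like layout, with 11 exons in Pdk1, Pdk2 and Pdk4 and 12 in Pdk3, and coding regions of 1221 to 1302 bases. Any pair of the 4 coding regions was 67.0 to 69.4% identical over the aligned bases. The longest run of identical bases was 29 between Pdk3 and Pdk4 and 12 to 19 in the other 5 pairs. Untranslated regions were not compared. That longest run is shown because it marks how far the coding region of Pdk4 matches that of a paralog exactly. It starts at coding base 970 of Pdk3 and 988 of Pdk4, with capitals for identical bases.
Pdk3 and Pdk4: TTTGGTTATGGCTTGCCAATTTCTCGTCT

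Pdk4 and Pdk2 are the kinases on which the results below turn, and the 250 bases before their start sites are shown side by side (RefSeq, GRCm38.p6, minus strand, 5′ to 3′). Capitals mark matches to 9 motifs searched on both strands.
Pdk4, chr6:5496279-5496528: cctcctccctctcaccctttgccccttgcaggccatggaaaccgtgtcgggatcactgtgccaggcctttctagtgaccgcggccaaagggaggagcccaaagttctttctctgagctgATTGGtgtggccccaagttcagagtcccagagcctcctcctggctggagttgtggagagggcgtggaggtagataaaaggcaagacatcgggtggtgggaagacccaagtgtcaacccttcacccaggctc
Pdk2, chr11:95041372-95041621: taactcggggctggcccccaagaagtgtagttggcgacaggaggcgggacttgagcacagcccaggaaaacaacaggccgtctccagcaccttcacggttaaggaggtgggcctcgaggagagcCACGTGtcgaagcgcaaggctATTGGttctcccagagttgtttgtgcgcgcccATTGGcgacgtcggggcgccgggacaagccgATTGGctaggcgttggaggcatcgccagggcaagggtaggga
The Pdk4 window held 1 CCAAT box, on the opposite strand and 131 bases before the start. The Pdk2 window held 3 CCAAT boxes, 105, 73 and 42 bases before the start, and 1 clock E-box, 126 bases before it. Pdk4 had 58.8% G and C and 6 CpG dinucleotides, and Pdk2 62.4% and 19, beside medians of 52.4% and 6 over all 32851 windows of that length. The window of a second Pdk2 start, not shown, had 58.8% and 12, and no match to the 9 motifs. The motifs and the share of all windows that hold each were the CCAAT box (CCAAT, 33.8%), the GC box (GGGCGG, 32.7%), the TATA box (TATAAA, 12.4%), the clock E-box (CACGTG, 6.02%), a nuclear receptor half-site (AAGGTCA, 4.08%), a FoxO core (TGTTTAC, 3.17%), the D-box that E4BP4 binds (TTATGTAA, 0.819%), a glucocorticoid receptor palindrome (0.387%) and the direct repeat of nuclear receptors with 1 spacer base (0.0335%). No window of the 8 members found in that table held a D-box. The same was true of the TATA box, the FoxO core, the nuclear receptor half-site, the palindrome and the direct repeat. Only 1 spelling of the D-box was searched, and at 0.819% of all windows it is rare, so its absence here says little. Pdp1 had no entry there. These matches describe letters only.

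No file states a depth, but TPM multiplied by transcript length gave whole reads for 98.55 to 98.84% of the values judged, and the reads recovered this way summed to 9213362 to 13149153 per library at ZT0 and 13126311 to 20157287 at ZT12. Time and depth therefore moved together (r of log2 depth with time 0.85 over the 12 libraries, a description of the design). The members were counted with at least 762 reads in every library, the lowest being Pdk1. Muscle fibre markers (Acta1, Ckm, Tnnt3, Tnni2, Mylpf, Myh4, Myh1 and Pvalb, 8 of 8 listed) summed to 93600 to 115000 TPM in each library. Of other markers, 0 of 4 hepatocyte, 0 of 5 lymphocyte and 0 of 2 brown adipocyte markers were listed. Listing needed 1.0 TPM in WT ZT0 replicate 1, so this says nothing of those markers in the other libraries. The library WT ZT0 replicate 2 stood apart, with a median correlation of 0.945 with the others against 0.975 to 0.985 for the rest, of which TG ZT12 replicate 1 was the lowest.

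Pdk4 was higher at lights off than at lights on in both genotypes. In WT it was at 20.5, 29.5 and 39.2 TPM at ZT0 and, at ZT12, at 88.8, 141 and 97.8 TPM. In TG it was at 31.0, 21.8 and 31.6 TPM at ZT0 and, at ZT12, at 71.8, 123 and 120 TPM. The lowest of the 6 ZT12 libraries (TG replicate 1) was 1.83 times the highest of the 6 ZT0 libraries (WT replicate 3), so the times did not overlap. The ZT0 means were 29.7 ± 9.38 TPM (WT) and 28.1 ± 5.46 TPM (TG), and the ZT12 means 109 ± 27.8 TPM (WT) and 105 ± 28.9 TPM (TG), each with its SD over 3 libraries.

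The log2 fold change of TPM + 1 from ZT0 to ZT12, a scale that slightly understates low genes, was 1.86 in WT (standard error 0.27, 95% interval 1.27 to 2.45) with an adjusted p of 0.0178 by limma with Benjamini-Hochberg adjustment over all genes. In TG it was 1.84 (standard error 0.27, interval 1.25 to 2.43) with a limma adjusted p of 0.0162. Over both genotypes it was 1.85 (interval 1.43 to 2.27), a 3.61-fold difference, with a limma adjusted p of 0.000533, and Pdk4 ranked 10th by p of 10415 genes. Pdk4 was the 1 member called of 8 in each of these comparisons. Of all genes, 0.115% were called in WT (2 higher and 10 lower, or 29 higher and 26 lower with median-of-ratios scaling), 0.154% in TG and 0.883% over both genotypes. Those called higher were 0.0192%, 0.0384% and 0.355%. Groups did not overlap, with ZT12 higher, in 5.62% of genes in WT, 3.21% in TG and 0.538% over both genotypes, and Pdk4 was the 1 such member in each. In these whole-muscle samples, more RNA per cell and more cells of a type that holds it cannot be told apart.

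**Figure D1:**
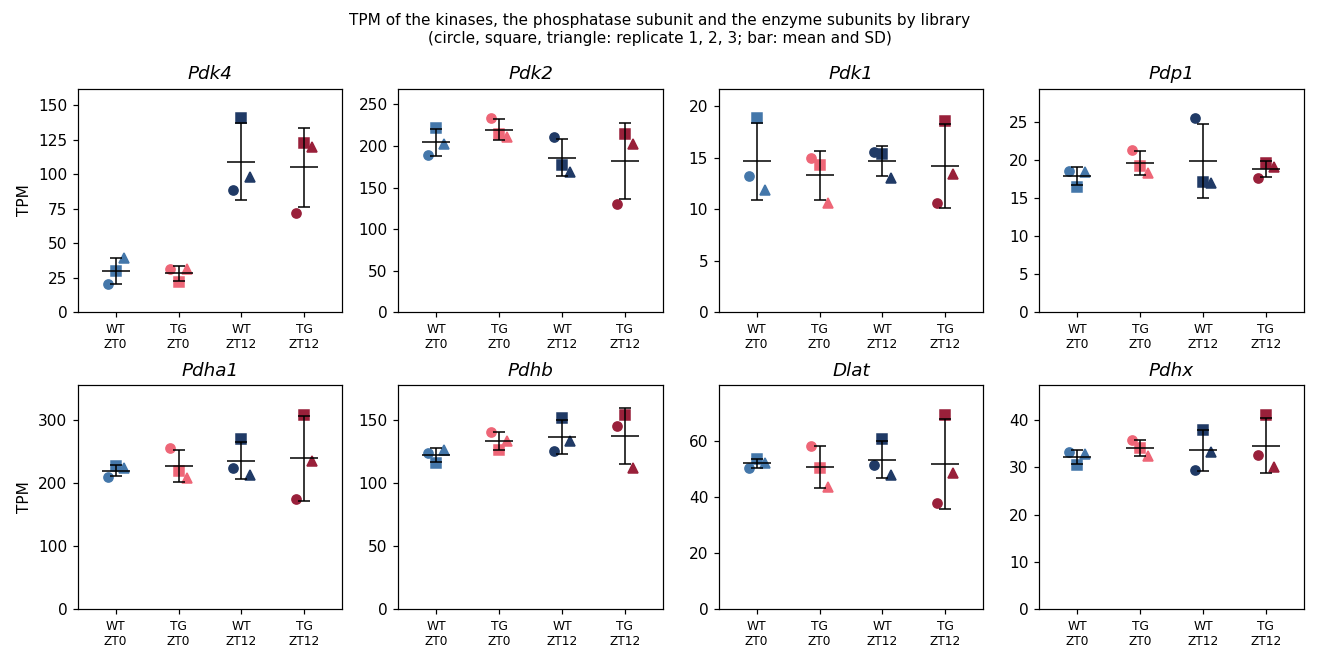
TPM (vertical axis, from 0) of the 8 listed genes in the 12 libraries, by genotype and time, with symbols for replicates 1, 2 and 3 and a bar for the mean and SD of each group of 3. Pdk4 lies at 20.5 to 39.2 TPM at ZT0 and at 71.8 to 141 TPM at ZT12, and in each of the other 7 genes the ranges of the 4 groups overlap between the times.

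The time difference of Pdk4 was smaller in a fit that held depth, and time and depth cannot be told apart fully in these libraries. With log2 depth as a covariate it was 0.92 in WT (limma adjusted p 0.328), 1.31 in TG (0.476) and 1.12 over both genotypes (0.239), none of them called. Of all 10415 genes, that fit called 0 in WT, 2 in TG and 2 over both genotypes. The standard errors were then 0.56, 0.38 and 0.43, beside 0.27, 0.27 and 0.19 without it. The depths of the 2 times did not overlap in either genotype. In WT they were at most 13149153 reads at ZT0 and at least 17715560 at ZT12. In TG they were at most 11451639 reads at ZT0 and at least 13126311 at ZT12. The median of all genes stood at -0.49, -0.27 and -0.38 with the covariate, beside -0.05, -0.01 and -0.03 without it. Within 1 genotype the call also rested on single libraries. It was lost in WT without ZT0 replicate 1 (1.62, limma adjusted p 0.0809) or without ZT12 replicate 1 (1.99, 0.0551), 2 (1.66, 0.119) or 3 (1.92, 0.0876). In TG it was lost without ZT0 replicate 1 (1.92, 0.0649), 2 (1.68, 0.103) or 3 (1.93, 0.0594), and without ZT12 replicate 2 (1.71, 0.0736) or 3 (1.73, 0.116). Over both genotypes it was called whichever library was left out, at 1.73 to 1.98.

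Markers of slow oxidative fibres, red cells and fibro-adipogenic cells varied between libraries. The 8 slow fibre markers summed to 184 to 744 TPM at ZT0 and 289 to 839 TPM at ZT12, all 8 had a log2 fold change above 0 between the times and 0 were called. The lowest sum, 184 TPM, was in WT ZT0 replicate 3, the ZT0 library with the highest Pdk4. With the slow fibre level as a covariate the difference of Pdk4 was 1.95 over both genotypes (limma adjusted p 0.000309). Erythroid markers summed to 86.2 to 163 TPM at ZT0, to 1530, 4260 and 176 TPM in WT at ZT12 and to 2960, 4560 and 145 TPM in TG at ZT12. All 5 erythroid markers lay above 0 between the times and 0 were called, and the correlation of their summed level with Pdk4 over the 12 libraries was the highest of the marker lists (r 0.69, a description). The ZT12 libraries with 176 and 145 TPM had Pdk4 at 97.8 and 120 TPM. The 5 fibro-adipogenic markers, of connective tissue cells, summed to 303 to 344 TPM in WT at ZT0 and 422 to 437 TPM in WT at ZT12, without overlap, and in TG to 340 to 388 and 307 to 433 TPM, with overlap. All 5 lay above 0 between the times over both genotypes, 0 were called, and the correlation of their level with Pdk4 was 0.45. The part of the red cell and fibro-adipogenic markers in the result was not tested.

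**Figure D2:**
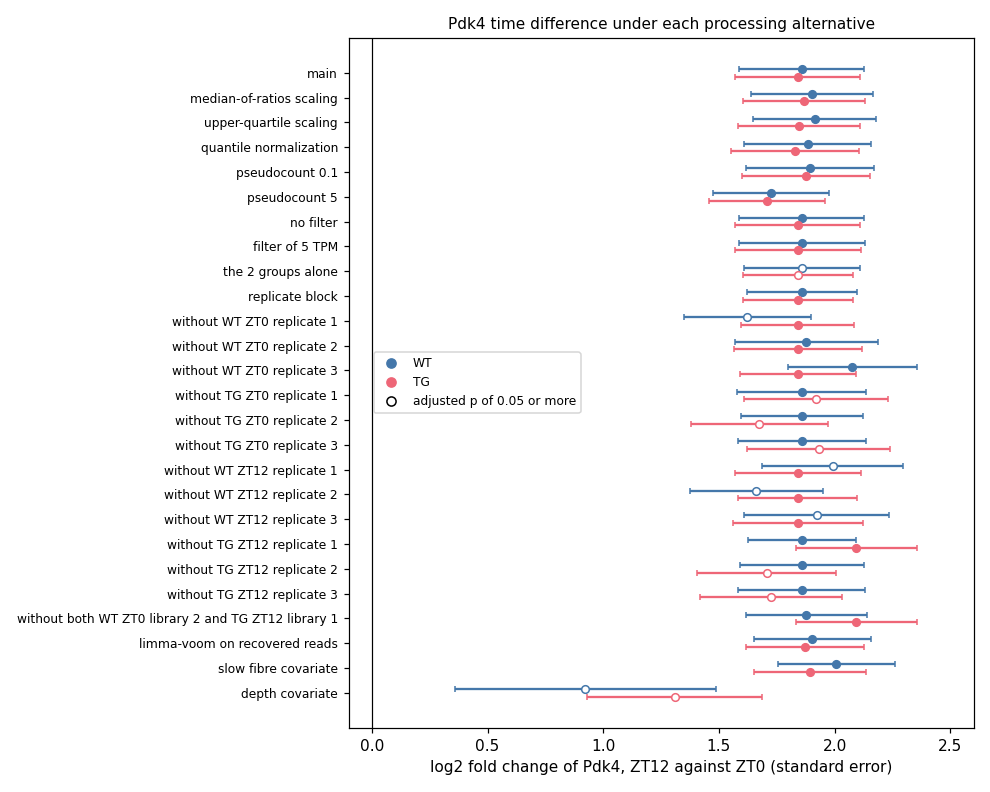
Log2 fold change of Pdk4 from ZT0 to ZT12 with its standard error (horizontal axis) in WT and TG under the reported processing (top line) and each alternative, open circles marking an adjusted p of 0.05 or more. The values lie at 1.62 to 2.09 in the 25 upper lines, while with depth as a covariate they were 0.92 in WT and 1.31 in TG.

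Pdk2 was the most abundant of the 3 listed kinases and did not show the rise of Pdk4. It was at 189, 222 and 202 TPM in WT at ZT0 and at 211, 177 and 169 TPM in WT at ZT12. In TG it was at 234, 214 and 211 TPM at ZT0 and, at ZT12, at 130, 215 and 202 TPM. Every mean was lower at ZT12, but the times overlapped in both genotypes. The log2 fold change over both genotypes was -0.22 (interval -0.48 to 0.04, limma adjusted p 0.905), -0.14 in WT and -0.30 in TG. With depth as a covariate it was -0.75 (limma adjusted p 0.239).

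Pdk1, a kinase known as a target of the hypoxia factor HIF-1, was the lowest of the 8. It was at 13.2, 18.9 and 11.9 TPM in WT at ZT0, and at 15.6, 15.4 and 13.0 TPM in WT at ZT12. In TG it was at 15.0, 14.3 and 10.6 TPM at ZT0 and, at ZT12, at 10.6, 18.6 and 13.4 TPM. Its groups overlapped, and the log2 fold change between the times was 0.05 over both genotypes (interval -0.28 to 0.38, limma adjusted p 0.997).

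Pdk3, absent from the TPM table, was present in the authors' deposited tables of TG against WT, which were normalized separately for each time. Its deposited log2 values there ran from -0.35 to -0.33 at ZT0 and from -1.60 to -1.58 at ZT12, beside 3.72 to 3.74 and 3.75 to 3.80 for Pdk1 in the same tables. These values are drawn towards each gene's mean, and no comparison between the times was made with them. Pdk3 was the lowest of the 4 kinases in both of the authors' deposited tables.

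The make-up of the kinase transcripts shifted between the times. Pdk4 made up 8.73 to 15.5% (median 11.0%) of the summed TPM of Pdk1, Pdk2 and Pdk4 in the 6 ZT0 libraries and 28.2 to 42.2% (median 34.7%) in the 6 ZT12 libraries. The share of Pdk2 was 79.8 to 85.6% at ZT0 and 53.2 to 66.9% at ZT12, and that of Pdk1 was 4.20 to 6.99% and 4.01 to 5.20%. The shares of Pdk4 and Pdk2 did not overlap between the times, while those of Pdk1 did. In TG at ZT12 the share of Pdk4 was nearly the same in each library (34.7 ± 1.1%, SD, n = 3), although its TPM there ran from 71.8 to 123, and in WT at ZT12 it was 35.1 ± 7.0%. The sum of the 3 kinases was 222.6 to 280.5 TPM at ZT0 and 212.9 to 357.1 TPM at ZT12. TG ZT12 replicate 1 had the lowest sum of all 12 libraries, and the other 5 ZT12 libraries were at 280.1 TPM or more.

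**Figure D3:**
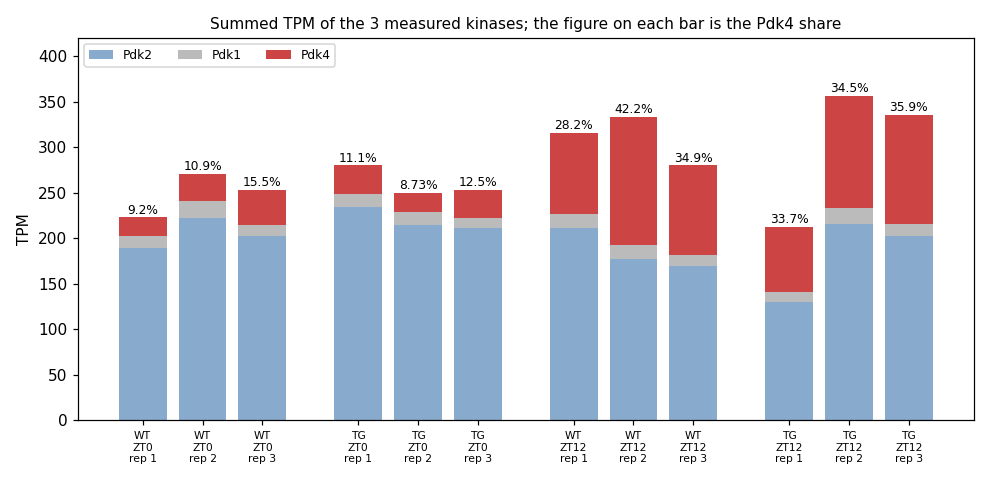
Summed TPM of Pdk2, Pdk1 and Pdk4 (vertical axis, from 0) in each of the 12 libraries, with the share of Pdk4 printed above each bar. The share is 8.73 to 15.5% in the ZT0 bars and 28.2 to 42.2% in the ZT12 bars, and the shortest bar, TG ZT12 replicate 1 at 212.9 TPM, still holds 33.7% Pdk4.

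Ratios taken within a library do not depend on how libraries are scaled to each other. The ratio of Pdk4 to Pdk2 was 0.108, 0.133 and 0.195 in WT at ZT0, and the full range was 0.102 to 0.195 at ZT0 and 0.421 to 0.794 at ZT12. On the log2 scale of TPM + 1 the ratio was higher by 2.07 at ZT12 (2.00 in WT, 2.14 in TG), a 4.2-fold difference between the means, and all 6 ZT12 libraries lay above the highest ZT0 library, with p = 0.005 in an exact two-sided permutation test of the time labels within each genotype (Benjamini-Hochberg adjusted over 4 ratio tests, 0.01). The ratio of Pdk4 to Pdha1, the subunit the kinases phosphorylate, was 0.098 to 0.176 at ZT0 and 0.396 to 0.523 at ZT12, higher by 1.78 on the same scale or 3.44-fold (exact permutation p = 0.005, adjusted 0.01). With 400 relabellings 0.005 is the smallest p this test can give. The differences were 1.93 to 2.18 and 1.65 to 1.88 in 15 alternatives, which changed the pseudocount or left out libraries. Depth was not held in these tests. Pdk4 to Pdp1, a kinase over the opposing phosphatase subunit, was 1.10 to 2.12 at ZT0 and 3.47 to 8.19 at ZT12, values given without a test. The 3 kinases summed to 1.07 to 1.22 times Pdha1 at ZT0 and 1.16 to 1.43 times Pdha1 at ZT12, which overlapped.

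Pdp1, the phosphatase subunit that removes the phosphates, was at 18.6, 16.5 and 18.5 TPM in WT at ZT0 and at 25.6, 17.2 and 17.0 TPM in WT at ZT12. In TG it was at 21.4, 19.2 and 18.3 TPM at ZT0 and, at ZT12, at 17.7, 19.7 and 19.1 TPM. WT ZT12 replicate 1 was the highest library and the others lay between 16.5 and 21.4 TPM. The log2 fold change between the times was 0.04 over both genotypes (interval -0.19 to 0.27, limma adjusted p 0.997).

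The subunits of the complex had steadier transcripts than its inhibitory kinase Pdk4. Pdha1 was at 209, 226 and 223 TPM in WT at ZT0 and, at ZT12, at 224, 269 and 213 TPM, and in TG at 255, 218 and 207 TPM at ZT0 and, at ZT12, at 174, 308 and 234 TPM. TG at ZT12 held both its lowest and its highest library. Pdhb was at 124, 116 and 126 TPM in WT at ZT0 and, at ZT12, at 125, 151 and 133 TPM, and in TG at 140, 126 and 133 TPM at ZT0 and, at ZT12, at 145, 154 and 112 TPM. Its highest library was 1.38 times its lowest, the smallest span of the 8 members, where that of Pdk4 was 6.87. Dlat, the core acetyltransferase, ran from 43.4 to 58.2 TPM at ZT0 and from 37.8 to 69.4 TPM at ZT12, and Pdhx, the anchoring protein, from 30.5 to 35.8 TPM and from 29.5 to 41.2 TPM. In Dlat, as in Pdha1, both extremes were in TG at ZT12, in replicates 1 and 2.

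The log2 fold changes between the times over both genotypes were 0.07 for Pdha1, 0.09 for Pdhb, 0.02 for Dlat and 0.03 for Pdhx, with limma adjusted p of 0.997 to 0.999. Over the 7 members other than Pdk4 they ran from -0.22 to 0.09, and their 95% intervals lay between -0.48 and 0.38. The median over the 8 members was 0.04, beside -0.03 over all genes tested. A p that misses the threshold does not show that these transcripts were equal at the 2 times, and with depth as a covariate Pdha1 stood at -0.21 and Dlat at -0.21. Reads of Pdha1 carry a further limit. Of its exon bases, 603 (21.17%) are shared with Map3k15 on the opposite strand, the library kit keeps no strand, and Map3k15 was itself listed at 28.7 to 46.0 TPM. The ratio of Pdha1 to Pdhb, the partners of 1 enzyme, was 1.56 to 1.95 at ZT0 and 1.20 to 2.10 at ZT12, with the lowest value in TG ZT12 replicate 1.

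TPM is scaled to transcript length, so the levels of the genes could be set in order. At ZT0 the order of the means over 6 libraries was Pdha1 (223 ± 17.1 TPM), Pdk2 (212 ± 15.8), Pdhb (128 ± 8.04), Dlat (51.3 ± 4.89), Pdhx (33.2 ± 1.76), Pdk4 (28.9 ± 6.92), Pdp1 (18.7 ± 1.57) and Pdk1 (14.0 ± 2.88). The ranges of Pdha1 and Pdk2 overlapped, as did those of Pdhx, Pdk4 and Pdp1 in turn and those of Pdp1 and Pdk1. At ZT12 the means were 237 ± 46.5 TPM for Pdha1, 184 ± 32.0 for Pdk2, 137 ± 16.4 for Pdhb, 107 ± 25.4 for Pdk4, 52.7 ± 11.0 for Dlat, 34.1 ± 4.60 for Pdhx, 19.4 ± 3.22 for Pdp1 and 14.4 ± 2.72 for Pdk1 (SD, n = 6). Pdk4, in place 6 at ZT0, stood in place 4 at ZT12, above Dlat and Pdhx. At ZT12 it lay above Dlat without overlap and overlapped Pdhb.

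The comparison of TG with WT asks whether muscle held other levels of these transcripts when the liver overexpressed E4BP4. None of the 8 members was called at either time, over both times or in the interaction of genotype and time. The background was 0.0% of all genes in each of these 4 comparisons by limma, with 117 genes at an unadjusted p under 0.05 at ZT0, 99 at ZT12, 133 over both times and 69 for the interaction, and limma-voom on the recovered reads called 0 as well. Without 1 library these counts at an unadjusted p under 0.05 ran from 66 to 817 at ZT0 and from 88 to 513 over both times, both highest without WT ZT0 replicate 3. They ran from 54 to 358 at ZT12 and from 46 to 259 for the interaction, both highest without TG ZT12 replicate 1. A call was made at ZT0 for 1 gene without TG ZT12 replicate 3 and for 1 gene with the 2 groups alone, and at ZT12 for 2 genes without both WT ZT0 replicate 2 and TG ZT12 replicate 1, none of them a member. Pdk4 differed by -0.05 on the log2 scale at ZT0 (interval -0.64 to 0.54), by -0.07 at ZT12 (-0.66 to 0.52) and by -0.06 over both times (-0.47 to 0.36, limma adjusted p 0.959). The sign of these 3 values was not stable: with median-of-ratios scaling they were 0.06, 0.02 and 0.04. The time difference of Pdk4 in TG minus that in WT was -0.02 (interval -0.85 to 0.82, limma adjusted p 0.9999), and the upper end of that interval is a 1.76-fold difference.

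For the other 7 members the genotype difference over both times ran from -0.09 for Pdk1 to 0.06 for Pdhx and Pdhb, and the intervals lay between -0.42 and 0.29. The medians of the 8 members were 0.06 at ZT0 and -0.05 at ZT12, beside -0.10 and -0.07 over all genes. Groups of TG and WT overlapped at both times in all 8 members, where 4.62% of all genes at ZT0 and 4.79% at ZT12 did not overlap. The ratio of Pdk4 to Pdk2 differed by -0.09 between the genotypes (exact permutation p = 0.64, adjusted 0.645) and that of Pdk4 to Pdha1 by -0.07 (exact permutation p = 0.645, adjusted 0.645).

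In the authors' deposited tables, Pdk4 had a log2 fold change of TG against WT of 0.00694 at ZT0 (their p 0.95) and of -0.00322 at ZT12 (their p 0.976). The largest value of a member in the authors' deposited tables was 0.142 for Pdk2 at ZT0 (their p 0.265), and Pdk3 stood at -0.0134 at ZT0 (their p 0.582) and 3.81e-05 at ZT12 (their p 0.998). The adjusted p was 0.9999 for all 9 members at both times in the authors' deposited tables.

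**Figure D4:**
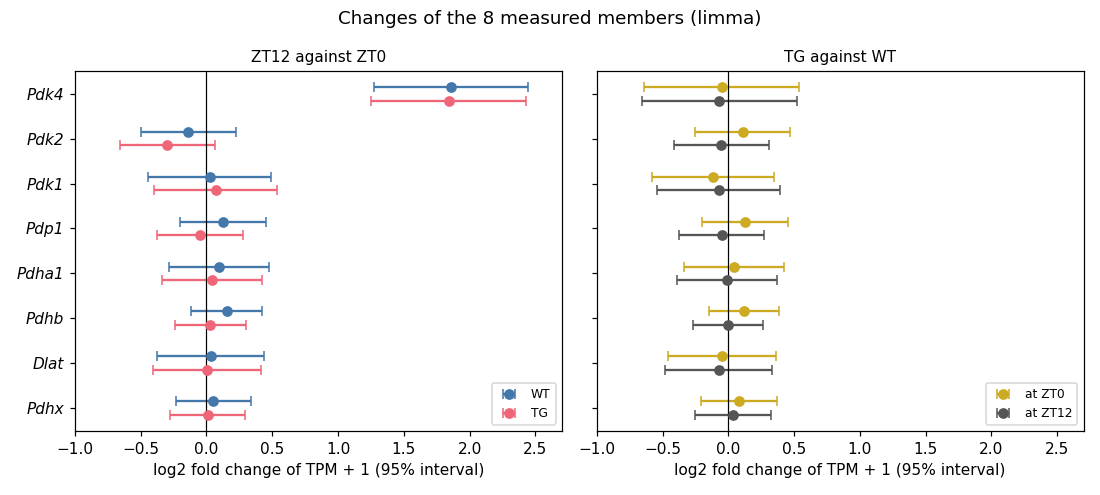
Log2 fold change of TPM + 1 with its 95% interval (horizontal axis) for the 8 listed members, ZT12 against ZT0 in WT and TG on the left and TG against WT at ZT0 and ZT12 on the right. Pdk4 on the left lies at 1.86 and 1.84 with intervals clear of 0, and each of the other intervals in both panels holds 0.

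Among 6130 genes with a mean of at least 5 TPM, the 8 whose log2 level over the 12 libraries was most like that of Pdk4 were Col5a3 (Pearson r 0.961, Spearman rho 0.769), Gprc5c (0.945, 0.902), Nr1d1 (0.941, 0.762), 3110062M04Rik (0.920, 0.874), Rnft1 (0.920, 0.769), Fbn1 (0.919, 0.811), Snx24 (0.909, 0.902) and Tmem140 (0.909, 0.846). The 12 libraries share the time groups and their depths, so a gene that differs between the times can score high for that alone. Nr1d1 encodes REV-ERB alpha, a repressor of the clock. Its ZT0 means were 12.9 ± 0.933 TPM (WT) and 10.8 ± 0.725 TPM (TG), and its ZT12 means 73.5 ± 9.50 and 63.4 ± 15.4 TPM (SD, n = 3). Col5a3 and Fbn1 encode a collagen chain and fibrillin of the extracellular matrix, and Col5a3 had means of 2.90 ± 0.281 (WT) and 2.74 ± 0.0965 (TG) TPM at ZT0 and of 7.72 ± 1.26 and 7.62 ± 2.18 TPM at ZT12. Gprc5c, an orphan receptor, had means of 12.6 ± 2.16 and 11.7 ± 1.52 TPM at ZT0 and of 24.8 ± 1.48 and 24.3 ± 9.39 TPM at ZT12. None of the other members came near these values: Pdha1 had r 0.377 with Pdk4, Pdhb 0.356, Dlat 0.220, Pdhx 0.215, Pdk1 0.167, Pdp1 0.069 and Pdk2 -0.342.

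The genes around the complex were taken from lists, to be read beside the 0.883% of all genes called between the times over both genotypes. Of 12 further genes of the complex and its upkeep, 10 were tested and 0 were called in any time or genotype comparison, with a median log2 fold change of 0.02 between the times over both genotypes. They include Dld, the third enzyme of the complex, at 103 TPM in WT at ZT0 and 112 TPM at ZT12, and Mpc1 and Mpc2, the mitochondrial pyruvate carrier. The values farthest from 0 were those of Lipt2 (-0.20) and Lipt1 (0.14), which handle lipoate, the cofactor of Dlat. All 7 genes of the related branched-chain and 2-oxoglutarate complexes were tested and 0 were called, but 6 of 7 lay below 0, with a median of -0.17 beside -0.03 over all genes. Dbt, the core of the branched-chain complex, was at -0.27 (limma adjusted p 0.648) and Ppm1k, its phosphatase, at -0.26 (0.872). Of 12 genes that make, move or use pyruvate, 12 were tested and 0 were called, with a median of -0.03, and Me2, a malic enzyme, was at -0.24 and Gpt2, an alanine transaminase, at -0.14. Me2 was at 7.46 TPM in WT ZT0 replicate 2 and at 1.54 and 1.50 TPM in the other WT libraries of that time, and without that library its difference was 0.05. That of Gpt2 was -0.006 without TG ZT12 replicate 1.

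Another list held 22 genes known or proposed to act on the kinase genes. They were PPARs and their RXR partners, PGC-1, ERR, FoxO, the glucocorticoid receptor, insulin signalling and others. Of these, 21 were tested, and 1 was called higher and 0 lower over both genotypes. The share called over all genes was 0.355% higher and 0.883% either way. Rxrg, a partner of the PPARs, had 32.9 to 40.0 (WT) and 36.9 to 40.5 (TG) TPM at ZT0, and 48.4 to 51.8 and 42.7 to 46.6 TPM at ZT12. Its log2 fold change was 0.35 (limma adjusted p 0.0497), and the call was lost in 18 of 24 alternatives, without any 1 of 10 libraries among them (up to 0.160, without TG ZT0 replicate 2). The median of the list was -0.04, and 8 of 21 lay above 0. The ends of the list, named after their values were seen, were Foxo1, a factor restrained by insulin, at -0.61 (limma adjusted p 0.427) and Irs2, a substrate of the insulin receptor, at 0.41 (0.997). Foxo1 was at 13.5 TPM in WT ZT0 replicate 2, beside 4.44 and 5.20 TPM in the other WT libraries of that time, and at -0.39 without it. Irs2 was at 0.63 without TG ZT12 replicate 1, 0.27 without WT ZT0 replicate 3 and -0.61 with depth as a covariate.

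Of 31 genes known as targets of PPARs, FoxO or glucocorticoids in muscle, 28 were tested, 2 were called higher and 4 lower between the times over both genotypes, and the median was 0.10 beside -0.03 over all genes. The share called over all genes was 0.355% higher and 0.883% either way. Fbxo32, a ubiquitin ligase of muscle atrophy, had 20.2 to 23.9 (WT) and 19.1 to 22.4 (TG) TPM at ZT0, and 34.7 to 45.6 and 34.5 to 57.5 TPM at ZT12. It rose by 0.97 on the log2 scale (limma adjusted p 0.00337). Txnip, an arrestin that restrains glucose uptake, had 107 to 132 and 132 to 154 TPM at ZT0, then 210 to 226 and 151 to 241 TPM at ZT12, a rise of 0.61 (limma adjusted p 0.0163). The 4 called lower were Cebpb, Fkbp5, Tsc22d3 and Per1. The list was not split by regulator, and glucocorticoid targets were not tested as a set. Whether glucocorticoids had a part in the time difference of Pdk4 was not tested. Cebpb fell by 1.02 (limma adjusted p 0.00284), from 54.3 to 81.4 TPM in WT at ZT0 to 32.0 to 42.0 TPM at ZT12. Fkbp5 fell by 0.92 (0.0184), Tsc22d3 by 0.86 (0.00388) and Per1, also a clock gene, by 0.78 (0.0181).

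With depth as a covariate none of these 6 genes was called (limma adjusted p 0.237 to 0.397, with the same sign). That fit called 2 of all 10415 genes over both genotypes. Txnip lost its call without WT ZT12 replicate 1 (limma adjusted p 0.0559) or 3 (0.0576). Per1 and Fkbp5 each lost theirs without any 1 of 5 libraries (up to 0.0689 and 0.0677): WT ZT0 replicate 3, TG ZT0 replicate 1 and WT ZT12 replicates 2 and 3 for both, TG ZT0 replicate 3 for Per1 and TG ZT0 replicate 2 for Fkbp5. Within 1 genotype, only Fbxo32 (1.17, limma adjusted p 0.0212) and Cebpb (-1.27, 0.0154) of this list were called, both in TG. In WT they were at 0.76 (limma adjusted p 0.187) and -0.78 (0.188). The interaction, in which 0 genes were called, was 0.41 for Fbxo32 (standard error 0.25) and -0.49 for Cebpb (0.26). With such errors it does not settle whether the genotypes differed in them. Between the genotypes 0 genes of the 5 lists were called.

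**Figure D5:**
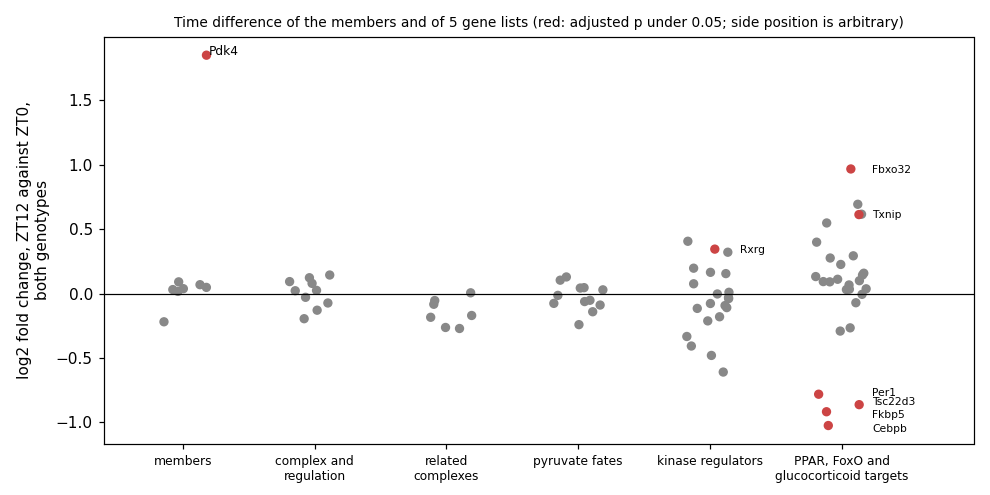
Log2 fold change of TPM + 1 between ZT12 and ZT0 over both genotypes (vertical axis) for the 8 members and the tested genes of the 5 lists, red where the limma adjusted p was under 0.05. Pdk4 at 1.85 lies above each of the other genes shown, and the 4 genes called lower, from -1.02 to -0.78, are in the list on the right.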

How the data were processed

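The 12 libraries of mouse gastrocnemius RNA form 4 groups of 3. Poly(A) selection and an unstranded library kit are given per the labels' protocols. Per the submitters' processing notes, bcl2fastq, STAR, HOMER 4.11.1 and DESeq2 were used, with mm10. The deposited TPM were made by the authors for 10475 genes. Per the file headers, HOMER made the other tables from exon reads, 1 for each time: the deposited log2 values (headed FPKM), the authors' log2 fold changes, and the authors' p-values.

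Members, gene lists and tests were chosen with earlier results of these data known. Tests covered genes that reached 1 TPM in 3 or more libraries, with limma 3.58.1 (trend, R 4.3.3) on log2(TPM + 1), with 4 group means in 1 fit, 7 contrasts, and calls at a Benjamini-Hochberg adjusted p under 0.05. The script was tested on simulated data. Reads were recovered as whole multiples of TPM times length (within 0.1 read, judged under 500 reads), for depth and limma-voom. These sums leave out unlisted genes. Ratios were tested by exact permutation (scipy 1.17.1, Python 3.11.15). Named genes were the members, the 8 genes most correlated with Pdk4 (mean of at least 5 TPM), and from each list those called, or else the 2 of largest change. Dld, Mpc1, Mpc2, Foxo1, Irs2 and Map3k15 were named outside this rule, after their values were seen. Promoters come from RefSeq (8 of 9 members found). Alternatives were other scalings, pseudocounts of 0.1 and 5, no filter or 5 TPM, the 2 groups alone, a replicate block, each library left out, limma-voom, and slow fibre or depth covariates.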

Additional observations from a re-analysis of the deposited data

How the results depend on the processing

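Depth and time cannot be told apart beyond what a covariate shows, single libraries decide calls within 1 genotype, and genes under 1.0 TPM in the library that chose the table are missing. The listed TPM summed to 429014 to 450432 per library, less than the full total to which TPM are scaled, so transcripts that are not low are missing too. The time difference of Pdk4 was above 0 under every alternative run. In WT it lost its call with the 2 groups alone (1.86, limma adjusted p 0.0724) and with depth as a covariate (0.92), and without 1 library it ran from 1.62 to 2.08. In TG it lost its call with the 2 groups alone (1.84, 0.0544) and with depth (1.31), and without 1 library it ran from 1.68 to 2.09. Over both genotypes it lost its call with depth alone (1.12), of 24 alternatives. None of the other 7 members was called in any of the 7 contrasts under any of the alternatives run (25, of which the 2 groups alone gave 4 contrasts, smallest limma adjusted p 0.239), nor was Pdk4 in the genotype contrasts.

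Whether the replicate numbers pair libraries across the groups was not settled. Over the 18 pairs that share a number, the correlation of their deviations ran from -0.35 to 0.29. Its median was 0.06, against -0.02 for different numbers. For 6 of the 12, the best match carried the same number. These values neither show pairing nor exclude it. With the replicate block Pdk4 was at 1.86 in WT (limma adjusted p 0.0209), 1.84 in TG (0.016) and 1.85 over both genotypes (0.000723), with 15, 18 and 96 genes called. Of the list genes called over both genotypes, Rxrg alone lost its call (limma adjusted p 0.0639). The genes most like Pdk4 were not followed through the alternatives.

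Uncalled values near 0 changed sign, and the cause was not tested. For Pdk4 in TG against WT at ZT0 the values were 0.06 with median-of-ratios scaling, 0.072 with upper-quartile scaling and 0.047 with quantile normalization, and -0.29 to 0.17 without 1 library. At ZT12 they were 0.024 and 0.004 with the first 2 scalings, 0.19 without both WT ZT0 replicate 2 and TG ZT12 replicate 1, and 0.38 with depth, and -0.20 to 0.19 without 1 library. Over both times they were 0.042, 0.038 and 0.02 with the 3 scalings, 0.077 without both libraries and 0.19 with depth, and -0.18 to 0.068 without 1 library. The interaction was 0.22 without both libraries, 0.39 with depth, and -0.23 to 0.23 without 1 library. For Pdk1 the time difference was -0.024 with the slow fibre covariate and -0.41 with depth (-0.052 to 0.14 without 1 library), and the genotype difference 0.001 with median-of-ratios scaling, 0.007 with quantile normalization, 0.087 without both libraries and 0.06 with depth. With depth the time differences of Pdha1 and Dlat were -0.21 each, and the genotype difference of Pdhb -0.008. That of Dlat was 0.04, 0.037 and 0.007 with the 3 scalings, 0.052 without both libraries and 0.017 with depth. Without 1 library the time differences ran from -0.055 to 0.086 for Pdp1, -0.033 to 0.17 for Pdha1, -0.097 to 0.12 for Dlat and -0.034 to 0.077 for Pdhx. The genotype differences ran from -0.04 to 0.14 for Pdk2, -0.011 to 0.13 for Pdp1, -0.085 to 0.12 for Pdha1, -0.17 to 0.041 for Dlat and -0.006 to 0.11 for Pdhx. The genotype difference of the ratio of Pdk4 to Pdk2 ran from -0.20 to 0.027, and that of Pdk4 to Pdha1 from -0.18 to 0.029.

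Counts over all genes moved more. The 12 genes called in WT were 55, 47 and 52 with the 3 scalings, 56 with limma-voom, 73 without both libraries and 0 with depth (2032 at an unadjusted p under 0.05), and 4 to 35 without 1 library. The 16 called in TG were 31, 29 and 33, 28, 71, 2 with depth and 3 with the 2 groups alone, and 6 to 21 without 1 library. The 92 called over both genotypes were 204, 191 and 195, 194, 419 and 2, and 47 to 157 without 1 library. For the genes called in the lists, the same alternatives were added after seeing the data. Fbxo32, Cebpb and Tsc22d3 lost their call with depth alone. Among uncalled genes, Me2 was at 0.126 without both libraries and ran from -0.389 to 0.05 without 1 library, and Irs2 was at -0.61 with depth and called without both libraries (0.786, limma adjusted p 0.016).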
